A study of Mus musculus with 10 samples.

Results

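The miRNAs described here come from the imprinted Dlk1-Dio3 region of mouse chromosome 12. Members were chosen by name: every mature miRNA listed in either table whose hairpin is 1 of 47 named hairpins of the region, whatever its level. This gave 78 of the 721 miRNAs listed in all, of which 71 stood in the brown adipose tissue (BAT) table of 679, 60 in the plasma table of 436, and 53 in both. Small RNA had been sequenced from small extracellular vesicles (sEV), the nanometre-scale particles that cells release, of C57BL/6J mice. Vesicles came from BAT of mice named Sed (3 libraries) or Exe (3 libraries) in the titles, and from plasma of Sed (2) and Exe (2) mice. From the titles and the design text, which names exercise as the variable, Exe is read here as trained and Sed as untrained, although the labels attach the same schedule (90 min sessions, 2 a day, over 4 weeks) to all 10 libraries. Age, sex and the number of mice behind a library are not in the labels. Since no label names separate animals as replicates, every p-value here reflects library-to-library spread, part or all of which may be technical.

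The Dlk1-Dio3 region is imprinted: its protein genes Dlk1, Rtl1 and Dio3 are read from the paternal chromosome, and its long non-coding RNAs Meg3, Rian and Mirg, the antisense transcript of Rtl1 and the miRNAs cut from them are read from the maternal one. Dlk1 restrains fat cell formation and Dio3 inactivates thyroid hormone, a stimulus of brown fat. The miRNAs are best known from embryonic growth, brain and muscle.

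RefSeq (GRCm38.p6) held a mature sequence for 74 of the 78 members, from 45 hairpins that all lay on the plus strand within 180.1 kb. The hairpins of miR-431, miR-433, miR-127, miR-434 and miR-136 overlapped an exon of Rtl1 on the opposite strand. In this annotation (GENCODE M21) the hairpins of miR-341 and miR-370 lay in Rian introns, 12 lay in Mirg (8 in exons and 4 in introns) and 1, miR-770, in a Meg3 exon, while 25 overlapped no host gene. The sequences below are those of the members on which the results turn, 5′ to 3′, with the seed (bases 2 to 8, the part that pairs with targets) in capitals.
miR-127-3p: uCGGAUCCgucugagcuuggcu
miR-434-3p: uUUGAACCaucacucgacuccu
miR-136-5p: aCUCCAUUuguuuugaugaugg
miR-341-3p: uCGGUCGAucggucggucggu
miR-379-5p: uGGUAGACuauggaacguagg
miR-411-5p: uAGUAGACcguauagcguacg
miR-376a-3p: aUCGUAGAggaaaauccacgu
miR-300-3p: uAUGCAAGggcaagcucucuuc
miR-381-3p: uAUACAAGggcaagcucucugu
miR-154-5p: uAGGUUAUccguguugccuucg
miR-369-3p: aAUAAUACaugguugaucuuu

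No seed was shared between any of the 74 members. Among the pairs whose seeds differed at 1 base were miR-379-5p and miR-411-5p, miR-300-3p and miR-381-3p, and miR-376a-3p and miR-376b-3p. Over their whole length miR-300-3p and miR-381-3p differed at 3 of 22 bases, and miR-376a-3p and miR-376b-3p at 3 of 21.

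Depth differed between the sources. The BAT libraries held between 104064 and 172279 miRNA reads and the plasma libraries between 1209116 and 1798169. All 6 brown fat miRNAs of the marker list were present in BAT, with a summed share of 6.84% to 23.5% of reads in Sed and 23.3% to 30.4% in Exe. The low value was that of Sed BAT 2, where miR-378a-3p had a share of 3.66%, while its share elsewhere in BAT was 16.7% to 27.1%. Plasma reads were dominated by miR-451a, a miRNA of red cells, in Sed (69.8% and 52.8%) more than in Exe (11.1% and 13.1%).

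The cluster made up about 1% of the miRNA reads of BAT vesicles without training and less with it. Its share was 0.987%, 0.812% and 1.13% in the 3 Sed BAT libraries (mean 0.977% ± 0.161, SD, n = 3) and 0.438%, 0.617% and 0.549% in Exe BAT (0.535% ± 0.0900). Every Exe library lay below every Sed library, and the exact 95% binomial interval of the lowest Sed library, 0.758% to 0.868%, did not reach that of the highest Exe library, 0.579% to 0.656%. These intervals cover counting error only, since PCR copies are not independent molecules. In plasma the order was the opposite, with 0.0560% and 0.227% in Sed and 0.624% and 0.424% in Exe (0.141% ± 0.121 and 0.524% ± 0.142, n = 2 each). A share depends on what else is in the library. With miR-451a left out of the total, the plasma means were 0.333% in Sed and 0.595% in Exe. The groups then came close without overlapping (0.480% in Sed plasma 2, 0.488% in Exe plasma 2). The plasma order rested on miR-127-3p. Without its reads the cluster's share was 0.0340% and 0.173% in Sed plasma and 0.0705% and 0.0971% in Exe plasma, and the groups overlapped. In BAT they did not (0.547% to 0.662% in Sed, 0.164% to 0.249% in Exe). In bulk vesicle RNA, fewer cells of a type, fewer vesicles from them and less RNA per cell cannot be told apart.

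**Figure D1:**
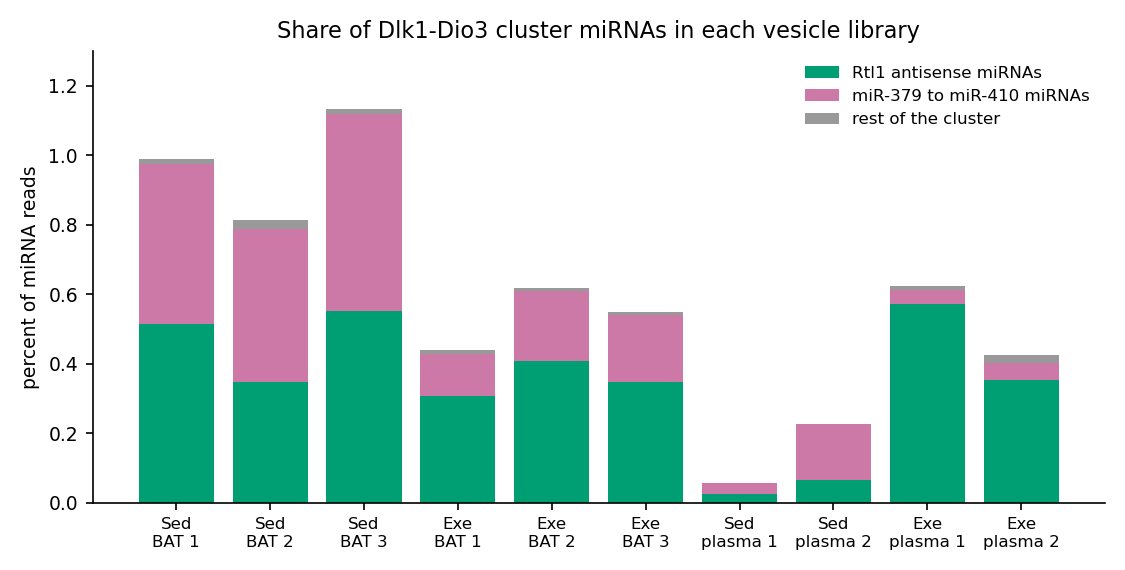
Stacked bars give the percent of miRNA reads (y axis, from 0) that came from the cluster in each of the 10 vesicle libraries (x axis), split into the Rtl1 antisense miRNAs, the miR-379 to miR-410 miRNAs and the rest. Exe BAT bars are shorter than Sed BAT bars mainly in the miR-379 to miR-410 part (0.122% to 0.202% against 0.440% to 0.567%), and the Exe plasma bars consist mostly of Rtl1 antisense miRNAs.

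The stretches of the region contributed unequally to this difference in BAT. The hairpins from miR-379 to miR-410, a dense array downstream of Rian that reaches into Mirg, took 0.489% ± 0.0683 of reads in Sed and 0.172% ± 0.0439 in Exe, without overlap. The miRNAs antisense to Rtl1 took 0.471% ± 0.109 in Sed and 0.354% ± 0.0501 in Exe, and here the groups overlapped: Sed BAT 2 (0.347%) lay among the Exe libraries (0.307% to 0.407%). The remaining hairpins together took 0.0176% ± 0.00636 and 0.00837% ± 0.000963.

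In BAT 11 members had enough reads to enter edgeR's quasi-likelihood test of Exe against Sed, and these held 82.7% to 91.3% of the cluster's reads in each library. Of these 11, 7 fell and none rose. Over all 199 miRNAs tested, 13.1% fell and 9.55% rose. The median log2 fold change was -1.0 over the 11 and -0.06 over the 199. In 6 of the 11 the Exe libraries all lay below the Sed libraries, which was so for 23.1% of all tested miRNAs. Members enter the test by their read number, which a high level in 1 group helps them reach. Among the members counted as fallen and as not overlapping, miR-369-3p entered through its Sed libraries alone.

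Among the Rtl1 antisense miRNAs, miR-127-3p was the most abundant member and did not pass the test. Its hairpin lies at chr12:109592846-109592915, and it is known to pair fully with the Rtl1 transcript and direct its cleavage. It had 746, 222 and 546 reads in Sed BAT and 320, 583 and 559 in Exe BAT. Its level in counts per 1000000 miRNA reads (CPM, on the TMM scale) was 3814 ± 1857 in Sed and 3375 ± 517 in Exe, and the groups overlapped. The difference was -0.18 ± 0.38 on the log2 scale (SE, adjusted p = 0.772), and it was positive with upper-quartile factors (0.0085) and with library totals implied by RPM (0.0517).

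Next along the same transcript, 1.59 kb away, miR-434-3p had 23, 18 and 22 reads in Sed BAT and 18, 27 and 15 in Exe BAT. Its log2 fold change was -0.17 ± 0.34 (adjusted p = 0.740), positive (0.0396) with library totals implied by RPM, and its groups overlapped. By contrast miR-136-5p, whose hairpin (chr12:109595327-109595388) begins 0.727 kb after that of miR-434, showed the largest log2 fold change of the 11 tested members. It had 85, 112 and 62 reads in Sed BAT and 10, 16 and 10 in Exe BAT, which is 545, 844 and 566 CPM against 87.4, 104 and 63.2 CPM. All 3 Exe libraries lay below all 3 Sed libraries. The log2 fold change of -2.93 ± 0.32 (adjusted p = 0.000838) ranked first by p-value among all 199 miRNAs, and its adjusted p ranged from 5.891e-12 to 0.0136 over the alternatives.

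The first hairpins of the downstream array, miR-379 and miR-411, are 1.05 kb apart and lie 114 kb beyond miR-136. For miR-379-5p (hairpin chr12:109709060-109709125) there were 151, 118 and 111 reads in Sed BAT and 21, 40 and 45 in Exe BAT. Its Sed levels were close together at 968, 889 and 1014 CPM, against 184, 260 and 284 CPM in Exe. It fell by 1.97 on the log2 scale (SE 0.25, adjusted p = 0.0017, 3.354e-07 to 0.0286 over the alternatives) and ranked second among the 199.

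The second most abundant member, miR-411-5p (hairpin chr12:109710175-109710256), had 317, 99 and 275 reads in Sed BAT and 39, 109 and 98 in Exe BAT. Its groups came close without overlapping, since Sed BAT 2 was at 746 CPM and Exe BAT 2 at 710 CPM. The log2 fold change was -1.65 ± 0.45 (adjusted p = 0.0261, 1.93e-05 to 0.107 over the alternatives).

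Further along the array, miR-376a-3p (hairpin chr12:109723781-109723848) had 53, 13 and 62 reads in Sed BAT and 3, 17 and 16 in Exe BAT. Its log2 fold change was -2.0 ± 0.63 (adjusted p = 0.0476), with 98.0 CPM in Sed BAT 2 inside the Exe range of 26.2 to 111 CPM. For miR-381-3p there were 44, 28 and 22 reads against 10, 17 and 23, and for miR-154-5p 56, 71 and 59 against 26, 41 and 47. Neither overlapped on the CPM scale, and their log2 fold changes were -1.0 ± 0.31 and -0.84 ± 0.27 (adjusted p = 0.0476 each). At the far end miR-369-3p, with 13, 11 and 10 reads against 1, 5 and 5, was at -1.71 ± 0.46 (adjusted p = 0.0261). It entered the test only through the Sed libraries, where it was high, which favoured a lower Exe value. Both remaining tested members of the array missed the threshold: miR-300-3p was at -0.98 ± 0.66 (adjusted p = 0.298) and miR-410-3p at -0.57 ± 0.67 (adjusted p = 0.566).

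**Figure D2:**
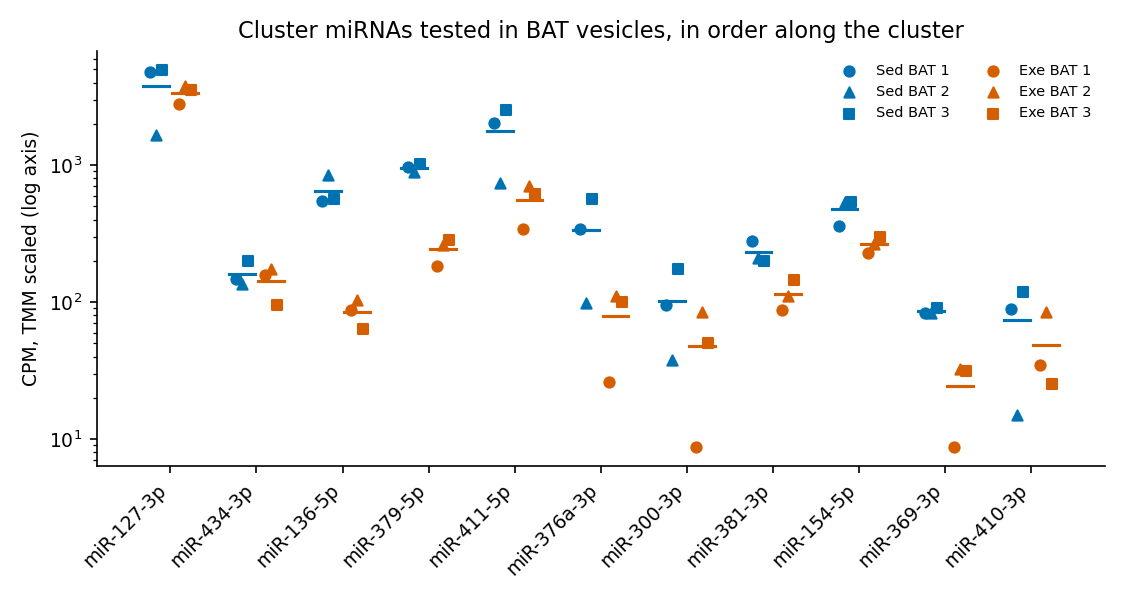
Points give the level of each of the 11 tested members in each BAT library as CPM on a log axis (y), in order along the cluster (x), with bars at group means of 3 libraries. The 6 points of miR-136-5p and of miR-379-5p separate into 2 groups, whereas those of miR-127-3p and miR-434-3p mix.

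**Figure D3:**
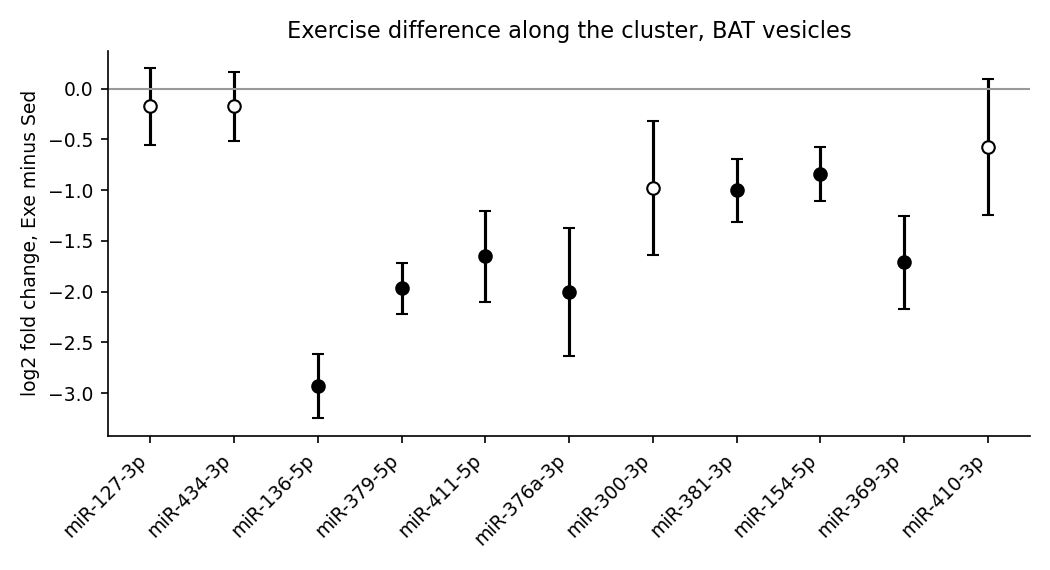
The log2 fold change of Exe against Sed BAT vesicles (y, with SE bars) is drawn for the 11 tested members in order along the cluster (x), filled where the adjusted p is under 0.05. All 11 points lie below 0, from -0.17 for miR-434-3p to -2.93 for miR-136-5p, which are neighbouring hairpins.

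The calls with the smallest p, miR-136-5p and miR-379-5p, held in all alternatives that tested them. The other 5 depended on single libraries and on the processing. The call of miR-411-5p was lost without Sed BAT 1 (adjusted p = 0.0930), Sed BAT 3 (0.0810), Exe BAT 1 (0.107) or Exe BAT 3 (0.0966). Those of miR-376a-3p, miR-369-3p and miR-381-3p were lost without any 1 library other than Sed BAT 2 (adjusted p = 0.0945 to 0.177, 0.0638 to 0.0966 and 0.0681 to 0.147), and that of miR-154-5p without any other than Sed BAT 1 (0.0971 to 0.160). With all libraries kept, the calls of miR-154-5p, miR-381-3p and miR-369-3p were lost with DESeq2 (adjusted p = 0.0859, 0.0908 and 0.0639). Those of miR-376a-3p and miR-411-5p were lost with limma-voom (0.131 and 0.0501). Over all alternatives the call was lost in 13 for miR-154-5p, 11 for miR-381-3p, 8 for miR-369-3p, 7 for miR-376a-3p and 6 for miR-411-5p. The log2 fold changes of all 5 kept their negative sign. Of 11 members, 4 fell with DESeq2 (11.6% of all tested miRNAs), 3 with limma-voom (9.55%) and 4 with library totals implied by RPM (6.53%). Without Sed BAT 1, 2 or 3 it was 3 of 9, 6 of 13 and 2 of 14 (10.8%, 12.4% and 7.89% of all). Without Exe BAT 1, 2 or 3 it was 2 of 15, 3 of 10 and 2 of 10 (3.98%, 8.16% and 2.49% of all). Upper-quartile factors moved the median log2 fold change of all miRNAs by 0.15, library size alone by -0.12 and library totals implied by RPM by 0.21, and the calls over all miRNAs, 26 lower and 19 higher, became 20 and 26, 24 and 14, and 13 and 25.

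A ratio of 2 miRNAs within 1 library needs no scaling factor. Set against miR-127-3p of the same library, a reference picked after its values were seen, miR-136-5p stood at 11.4, 50.5 and 11.4 reads per 100 reads of miR-127-3p in Sed BAT and at 3.13, 2.74 and 1.79 in Exe BAT. For miR-379-5p the ratios were 20.2, 53.2 and 20.3 against 6.56, 6.86 and 8.05. Sed BAT 2, with its 222 reads of miR-127-3p, gave the highest ratio in both. With miR-411-5p no library stood apart, at 42.5, 44.6 and 50.4 against 12.2, 18.7 and 17.5. The ratio was computed for chosen members only, so no share over all miRNAs stands beside the overlaps that follow. On it miR-136-5p, miR-379-5p, miR-411-5p, miR-376a-3p and miR-369-3p did not overlap between the groups. The groups overlapped for miR-434-3p (3.08, 8.11 and 4.03 against 5.63, 4.63 and 2.68), miR-381-3p and miR-154-5p. The part of all cluster reads that was miR-127-3p was accordingly 44.6%, 26.3% and 41.5% in Sed BAT and 62.6%, 59.6% and 59.1% in Exe BAT.

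**Figure D4:**
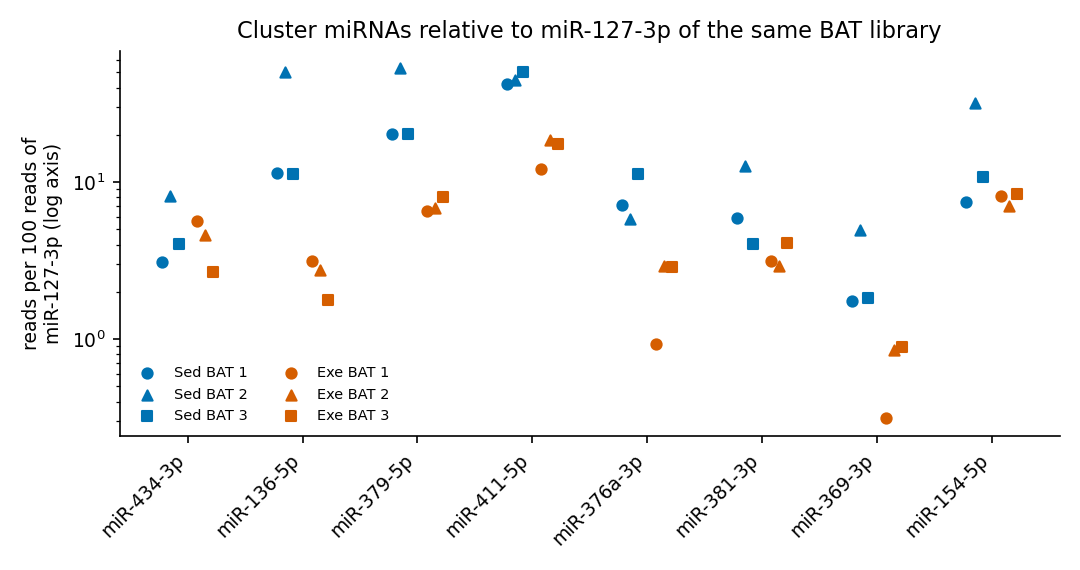
For 8 members (x), points give the reads per 100 reads of miR-127-3p in the same BAT library on a log axis (y). The Exe points of miR-136-5p (1.79 to 3.13), miR-379-5p (6.56 to 8.05) and miR-411-5p (12.2 to 18.7) lie below all Sed points, and those of miR-434-3p lie among them.

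The 60 members of the BAT table that did not enter the test had at most 57 reads each over the 6 libraries. Summed, they gave 155, 146 and 114 reads in Sed BAT and 58, 98 and 116 in Exe BAT, which is 0.0915%, 0.140% and 0.0982% of miRNA reads against 0.0498%, 0.0617% and 0.0673%. These groups did not overlap either. Singly, 40 of the 60 had more reads in Sed, 15 had more in Exe and 5 had equal numbers. These are unscaled reads, and no such count was made over the other untested miRNAs. Of all 71 members, 37 had under 10 reads in total. The best covered were miR-382-5p (31 reads over the Sed libraries and 26 over Exe), miR-369-5p (25 and 18) and miR-329-3p (38 over all 6). Such counts do not resolve single members.

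Other values moved with the groups in BAT. Of the 6 brown fat miRNAs 3 rose (miR-193b-3p 1.17, miR-328-3p 1.26 and miR-455-3p 1.57), while miR-378a-3p was at 0.73, miR-193a-3p at -0.69 and miR-365-3p at -1.08 without passing. From the adipocyte list miR-148a-3p fell (-1.29, adjusted p = 0.0360), while miR-103-3p was at 0.15, miR-107-3p at 0.47 and miR-22-3p at 0.48 without passing. From the leukocyte list miR-142a-3p fell (-1.19, adjusted p = 0.0154), while miR-150-5p was at 0.30, miR-155-5p at 0.95 and miR-223-3p at 0.65 without passing. From the liver list miR-122-5p rose (2.62, adjusted p = 0.0493), while miR-192-5p was at 0.18 and miR-194-5p at 0.19 without passing. The share of miR-122-5p was 0.00345% to 0.00768% of reads in Sed BAT. In Exe BAT it was 0.0755%, 0.0189% and 0.00697%, so the groups overlapped. The part of these marker miRNAs in the cluster's lower share was not tested. Across the 168 tested miRNAs with a RefSeq sequence (84.4%), the log2 fold change correlated with GC content at r = 0.39, across miRNAs that are not independent. The 7 members that fell had a median GC content of 45.5%, the same as all tested miRNAs, but ranged from 23.8% in miR-369-3p to 50% in miR-154-5p. Measured from a straight line on GC content fitted over the 157 other miRNAs, miR-136-5p was at -2.63, miR-379-5p at -2.04, miR-376a-3p at -1.92, miR-411-5p at -1.73, miR-381-3p at -1.0, miR-154-5p at -1.0 and miR-369-3p at -0.99, while miR-127-3p was at -0.64.

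Markers of tissues known for this cluster were read from lists. All 5 neural miRNAs of the list had reads in BAT, with a summed share of 0.0750% to 0.107% in Sed and 0.0721% to 0.0951% in Exe, and none of the 3 tested passed. For muscle the summed share was 2.98% to 5.59% in Sed and 2.51% to 3.56% in Exe, and 1 of 5 fell (miR-1a-3p, -1.47). The list did not move together: miR-133a-3p was at 0.46, miR-133b-3p at 0.71, miR-206-3p at 0.19 and miR-499-5p at -0.42, without passing. The part of the neural and muscle markers in the cluster's difference was not tested. From the region's miRNAs outside the 47 hairpins, 7 were listed in BAT and none had enough reads for the test. Of 43 listed miRNAs from other imprinted genes (Sfmbt2, H19, Igf2, Mest and Nespas), 2 were tested and neither passed: miR-296-5p was at 0.51 and miR-466i-5p at -0.30.

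Plasma vesicles showed another distribution, with miR-127-3p taking most of the cluster's reads after training. No miRNA passed edgeR's quasi-likelihood test there: 0.0% of 182 were called, although 60 (33.0%) had an unadjusted p under 0.05, DESeq2 called 57 and limma-voom 40. Upper-quartile factors moved the median log2 fold change of all plasma miRNAs by -0.92, unadjusted library size moved it by 0.62 and DESeq2's factors by -0.16. Of the 11 members that entered the test, 4 had an unadjusted p under 0.05. Groups of 2 libraries did not overlap, with Exe lower, in 2 members (30.8% of all tested miRNAs) and with Exe higher in 3 (28.6%). Of these, miR-376a-3p and miR-433-3p (Exe lower) and miR-341-3p (Exe higher) entered the test only through the group where they were high. The values that follow are given without a call of direction.

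The Rtl1 antisense miRNAs took 0.0241% and 0.0669% of reads in Sed plasma and 0.572% and 0.354% in Exe plasma. The Sed libraries held 295 and 967 reads of miR-127-3p and the Exe libraries 6692 and 5766, or 343 and 548 CPM against 3731 and 3085 CPM. Its log2 fold change was 2.94 ± 1.09 (SE, n = 2 per group, adjusted p = 0.122, 0.0232 to 0.363 over the alternatives), past the threshold with DESeq2 (2.77, adjusted p = 0.0232) and without Sed plasma 2 (3.29, adjusted p = 0.0449). The share of cluster reads that was miR-127-3p was 39.3% and 23.7% in Sed and 88.7% and 77.1% in Exe, again without overlap. The neighbour miR-434-3p had 13 and 93 reads against 226 and 488 (2.51 ± 1.87, adjusted p = 0.406), and its ratio to miR-127-3p overlapped between groups, at 4.41 and 9.62 against 3.38 and 8.46 reads per 100.

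Of the same transcript, miR-433-3p and miR-136 had nearly all their plasma reads in Sed. The counts of miR-433-3p were 16 and 48 in Sed and 1 in each Exe library. That is a ratio of 44.6 on the TMM scale (exact 95% counting interval 11.9 to 377), an interval that treats reads as independent. The fitted log2 fold change was -5.20 ± 1.56 (adjusted p = 0.0915). Of the alternatives only limma-voom passed (adjusted p = 0.0464), and the replicate block gave 0.484. This member entered the test only through the Sed libraries, which favoured a lower Exe value. Both arms of miR-136 came from Sed plasma 2 with 1 exception: for miR-136-5p the Sed libraries held 0 and 47 reads and the Exe libraries 1 and 0, and for miR-136-3p the Sed libraries held 0 and 28 and the Exe libraries none. All but 1 of its plasma reads were thus in 1 library.

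From the Rian introns, miR-341-3p was counted 1 and 3 times in the Sed plasma libraries, against 134 and 367 times in Exe plasma. Over the 6 BAT libraries it had 5 reads in all. Its log2 fold change in plasma was 6.47 ± 2.35 (adjusted p = 0.119), and 7.18 without Exe plasma 1. With all libraries kept it passed with DESeq2 (6.38, adjusted p = 0.00166) and limma-voom (6.05, adjusted p = 0.0274). Its adjusted p was 0.419 with a mean of at least 50 reads and 0.576 with the second plasma values. This miRNA entered the test only through the Exe libraries, which favoured a positive value, so these calls do not bear out a direction. The sequence of this miRNA consists largely of repeats of cggu, and its GC content of 66.7% was the highest among the tested plasma members with a sequence. Measured from the line on GC content over the 140 other plasma miRNAs, it was at 3.70, miR-127-3p at 1.17 and miR-434-3p at 2.53.

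The miR-379 to miR-410 array was split between libraries rather than groups in plasma. Its share was 0.0317% and 0.159% in Sed and 0.0404% and 0.0485% in Exe. For miR-379-5p the Sed libraries held 15 and 2244 reads and the Exe libraries 198 and 2 (-3.53 ± 2.86, adjusted p = 0.445), and the value was 1.61 without Sed plasma 2. With miR-411-5p the counts were 318 and 88 against 233 and 3 (-1.67 ± 2.38, adjusted p = 0.640), and the value was 0.42 without Sed plasma 1. Exe plasma 2 was thus nearly empty of both array miRNAs that lead in BAT. Per 100 reads of miR-127-3p the groups did not overlap, at 5.08 and 232 in Sed against 2.96 and 0.0347 in Exe for miR-379-5p. For miR-411-5p they were at 107.8 and 9.10 against 3.48 and 0.0520. That reference itself differed, at 343 and 548 CPM in Sed and 3731 and 3085 CPM in Exe. On the CPM scale miR-379-5p (17.4 and 1271 against 110 and 1.07) and miR-411-5p (370 and 49.9 against 130 and 1.61) overlapped. The ratio thus shows no separation of these 2 miRNAs by themselves.

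That same library held 398 of the 466 plasma reads of miR-154-5p and 443 of the 469 of miR-485-5p. Their log2 fold changes, 1.89 ± 2.37 and 4.09 ± 3.21 (adjusted p = 0.597 and 0.427), became -1.85 and -1.92 without it. Listed at 0 reads in both Exe libraries was miR-376a-3p, with 11 and 43 reads in Sed. Against a floor of 3 reads over the group it was at least 25.1-fold lower in Exe, a bound for counting error only (adjusted p = 0.0899). Of the alternatives only limma-voom passed (adjusted p = 0.0274), and the replicate block gave 0.308. It too entered the test only through the Sed libraries, which favoured a lower Exe value. The last tested members were miR-381-3p (0 and 48 reads against 14 and 2, -1.61 ± 2.16, adjusted p = 0.623) and miR-487b-3p (1 and 58 against 9 and 0, -2.74 ± 2.30, adjusted p = 0.460). For miR-381-3p the value was 5.73 without Sed plasma 2.

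**Figure D5:**
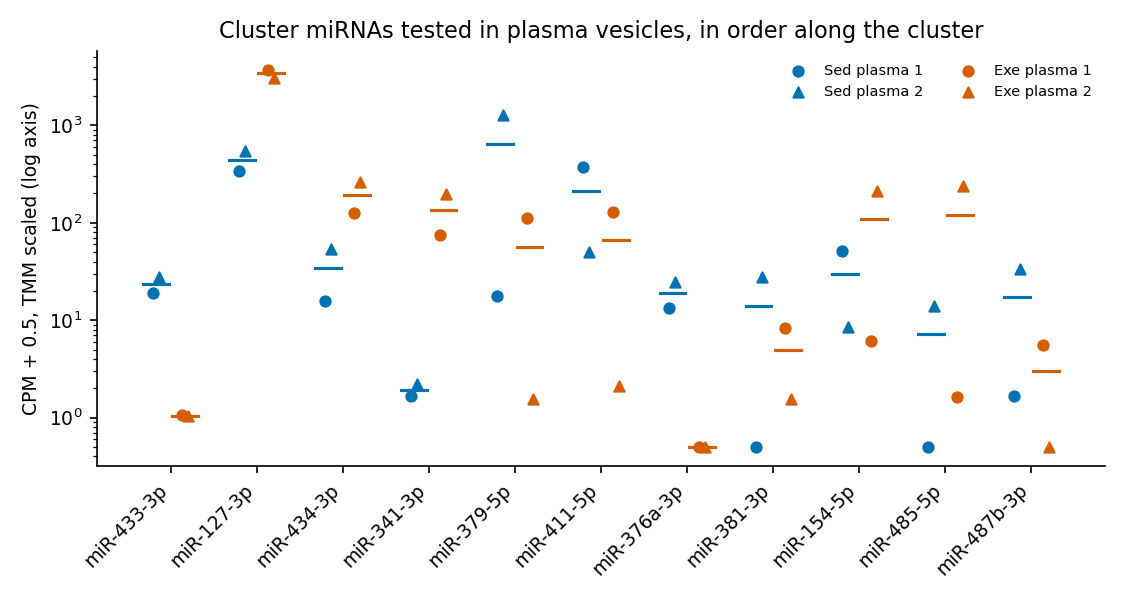
Points give CPM plus 0.5 on a log axis (y) for the 11 tested members in each plasma library, in order along the cluster (x), with miR-485-5p and miR-487b-3p placed last. Bars are means of 2 libraries. Exe points lie above Sed points for miR-127-3p, miR-434-3p and miR-341-3p, while miR-379-5p is at 17.4 and 1271 CPM in the Sed libraries and at 110 and 1.07 CPM in Exe.

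The plasma table also gives a second whole number for each miRNA and library, never larger than the read count, whose making is not given in the sources used here. Reads per unit of that number were 3.31 and 21.4 in the Sed libraries and 1.41 and 1.64 in the Exe libraries, highest in Sed plasma 2. Its totals were 405717 and 84021 in Sed and 858401 and 1078779 in Exe, so values are given per 1000000 of the library's total. On this scale miR-127-3p stood at 473 and 1559 in Sed and 7253 and 5094 in Exe, and miR-341-3p at 2.46 and 23.8 against 155 and 340.2. Neither overlapped between groups. For miR-434-3p, at 12.3 and 452 against 260 and 451, and for miR-379-5p, at 7.39 and 1654 against 228 and 1.85, the groups overlapped. The second number of miR-433-3p was 1 and 21 in Sed and 1 and 1 in Exe, so Sed plasma 1 had the same number as both Exe libraries, and that of miR-376a-3p was 2 and 15 against 0 and 0. The cluster's share by this number was 0.130% and 0.628% in Sed and 0.824% and 0.667% in Exe, a smaller gap than in reads. Of the members 8 had high enough second numbers to be tested, miR-433-3p and miR-376a-3p not among them, and none passed.

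Of the 49 plasma members outside the test, 15 had no read in any library, and the highest, miR-409-3p, had 126 of its 133 reads in Sed plasma 2. The next, miR-300-3p, had 77 reads, all in Sed plasma 2, followed by miR-136-5p with 48. Summed over the 49, the Sed libraries held 37 and 448 reads and the Exe libraries 25 and 10. Outside the 47 hairpins 1 further miRNA of the region was listed in plasma, with too few reads for the test, and of 20 from other imprinted genes 1 was tested, miR-466i-5p (0.16 ± 3.23). Neural markers in plasma had a summed share of 0.116% to 0.152% in Sed and 0.0725% to 0.161% in Exe, most of it miR-7a-5p. Neuronal miR-124-3p had 46 and 417 reads in Sed and none in Exe, and miR-9-5p had 104 and 505 against 2 and 2 (adjusted p = 0.0915 each, not past the threshold). Of the others on the list, miR-338-3p had 4 and 27 reads against 0 and 0. The list did not move as 1: miR-218-5p had 57 and 188 against 10 and 370, and miR-7a-5p 1827 and 941 against 864 and 2472. The part of the neural markers in the cluster members read almost only in Sed plasma was not tested. Muscle markers took 0.207% to 0.651% in Sed and 0.563% to 0.683% in Exe.

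Whether the exercise difference itself differed between plasma and BAT was tested as an interaction in a fit of all 10 libraries over the miRNAs of both tables, 234 of which were tested, 17 of them members. That fit cannot separate the vesicle source from the table or from how each was sequenced: they cannot be told apart. Past the threshold were 2 of the 17 members, against 29.1% of all tested. For miR-341-3p the effect in plasma minus that in BAT was 6.57 ± 2.14 on the log2 scale (adjusted p = 0.0413), a value that rests on 5 BAT reads. For miR-376a-3p it was -5.54 ± 1.78 (adjusted p = 0.0413), where a group at 0 reads makes the size depend on the fit. Each lost the threshold in 11 alternatives, with adjusted p up to 0.182 for miR-341-3p and 0.111 for miR-376a-3p. For miR-341-3p these included leaving out Sed BAT 2 (0.0673), Sed BAT 3 (0.182), Exe BAT 1 (0.0949), Exe BAT 3 (0.0764), Sed plasma 1 (0.111), Sed plasma 2 (0.0850) or Exe plasma 2 (0.0531). For miR-376a-3p they included leaving out any 1 BAT library (0.0598 to 0.0971), Sed plasma 2 (0.0758) or Exe plasma 2 (0.0735). The values for miR-127-3p (2.63 ± 0.97, adjusted p = 0.0631) and miR-136-5p (-2.75 ± 2.01, adjusted p = 0.297) did not pass.

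Sed plasma was set against Sed BAT in the same joint fit to ask where the cluster is found. Of 17 members 1 was lower in plasma and none was higher, while 42.3% of all tested miRNAs differed (22.2% lower and 20.1% higher). It was miR-337-5p, with 12, 7 and 5 reads in Sed BAT and 0 and 3 in the far deeper Sed plasma libraries (-3.31 ± 1.02, adjusted p = 0.0252). Without Sed BAT 1 or Sed BAT 2 it had too few reads for the test, and no member was called. It thus entered through Sed BAT, where it was high, which favoured a lower plasma value. This call therefore does not show where the cluster is found. On library size alone 12 of 17 members were lower in plasma, where 59% of all tested miRNAs were. Without Sed plasma 2 it was 8 of 19 (31.1% of all), and without Sed plasma 1 it was 2 of 20 (21.1% of all). Library size alone moved the median of all miRNAs by -2.62, and miR-451a took 52.8% to 69.8% of the Sed plasma reads.

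A hairpin gives a 5p and a 3p arm, of which usually 1 is kept. In BAT, 11 hairpins had both arms listed and at least 50 reads together. The 5p arm made up 99.2% of reads for miR-379 (exact 95% interval 97.9% to 99.8%), 97.4% for miR-154 and 97.4% for miR-136, and 1.20% for miR-376a and 1.37% for miR-381, over all 6 libraries. Both arms were used about equally by miR-369, with 48.9% of reads on the 5p arm (38.1% to 59.8%), and by miR-337, with 52.3% (39.5% to 64.9%). For miR-434 the 5p arm took 14.8%, 14.3% and 12% in Sed BAT and 25.0%, 20.6% and 25.0% in Exe BAT, on 20 to 34 reads a library, and the pooled intervals (6.77% to 23.8% and 14.3% to 34.0%) overlapped.

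In plasma 7 hairpins met the same rule. The arms of miR-127 were 1 read of 5p and 13720 of 3p. For miR-434 the 5p arm had 20 of 113 reads in Sed plasma 2 (17.7%, 11.2% to 26.0%), and none of 226 and none of 488 reads in the Exe libraries. By the table's second number those 20 reads were 1 of 39 (2.56%). For miR-136 in Sed plasma 2 the 5p arm had 47 of 75 reads (62.7%, 50.7% to 73.6%) and 11 of 15 by the second number (73.3%), beside 98.9% of reads (96.7% to 99.8%) in pooled Sed BAT.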

How the data were processed

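Vesicle small RNA of 10 libraries was analysed from 2 tables, 1 per source. Read counts per mature miRNA are as deposited, per the file headers. The authors' RPM values in the BAT table equal the counts divided by 1 total per library (within 0.01) and served only to recover those totals. The submitters' processing notes list Bowtie 0.12.2 and 2 builds, mm8 and mm9, without saying how they were used. How reads were counted, against which miRNA annotation and after which filters is not given in the sources used here.

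Each comparison was fitted over the whole table with edgeR 4.0.16 (quasi-likelihood test, TMM, filterByExpr, robust dispersions, Benjamini-Hochberg, threshold 0.05) in R 4.3.3. Adjusted p-values come from it unless another tool is named. The SE is the log2 fold change over the square root of F. Alternatives used DESeq2 1.42.0, limma-voom (limma 3.58.1), other scalings and filters, a replicate block and each library left out. The code was tested on simulated counts. Intervals came from scipy 1.17.1. Coordinates and sequences are RefSeq's (GRCm38.p6). Replicate numbers were not used to pair the libraries, except in the replicate block.

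Every member that entered a test is named. For the joint fits those past the threshold are, and miR-127-3p and miR-136-5p were added after their values were seen. The members, lists and tests were chosen with earlier results of these data known.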

Additional observations from a re-analysis of the deposited data

Results flagged for a closer look

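In the interaction test, 2 of the 17 cluster miRNAs tested had an exercise difference that differed between plasma and BAT vesicles, a smaller share than the 29.1% of all tested miRNAs. For miR-341-3p the effect in plasma minus that in BAT was 6.57 on the log2 scale (adjusted p = 0.0413, edgeR). This miRNA had 5 reads over the 6 BAT libraries and entered the test through the Exe plasma libraries, so the size of the value depends on the fit. For miR-376a-3p it was -5.54 (adjusted p = 0.0413, edgeR), with both Exe plasma libraries at 0 reads, which makes its size depend on the fit too. Each call was lost in 11 alternatives, with adjusted p up to 0.182 and 0.111. Table, sequencing and vesicle source cannot be told apart in either.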

How the results depend on the processing

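Depth limits single members: 37 of 71 had under 10 reads in BAT and 36 of 60 in plasma. In BAT the 7 members that fell became 4 with DESeq2, 2 with a mean of at least 50 reads (fewer miRNAs tested), 3 with limma-voom, 4 with library totals implied by RPM and 2 with the replicate number as a block, and 2 to 6 with 1 library left out. The 45 calls over all BAT miRNAs became 21 with a mean of at least 50 reads and 25 with the block, and 16 to 56 with 1 library left out. In plasma, where 0 were called, limma-voom called 2 members lower and 1 higher and DESeq2 2 higher, and 0 to 1 were higher with 1 library left out. Over all plasma miRNAs the calls were 57 with DESeq2, 4 with upper-quartile factors, 10 with library size alone, 17 with no filter, 29 with a mean of at least 50 reads, 40 with limma-voom, 7 with the block, 11 with the second plasma values and 3 to 27 with 1 library left out. Those second values, the ratio to miR-127-3p, the line on GC content, the totals implied by RPM other than for the count of members that fell, and all alternatives for counts over all miRNAs were chosen after seeing the data.

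In the interaction, 2 of 17 members passed, beside 39 lower and 29 higher of all 234 miRNAs. With DESeq2 it was 5 members, beside 59 lower and 43 higher of all. Upper-quartile factors gave 4, beside 63 and 20. A mean of at least 50 reads gave 0 of 7, beside 26 and 21 of 156. The block gave 0, beside 19 and 15 of 234. Leaving out 1 BAT library gave 0 to 1, beside 18 to 26 lower and 14 to 21 higher. The count moved further with 1 plasma library left out, which leaves 1 in its group. For Sed plasma against Sed BAT 1 of 17 members was lower, beside 22.2% of all tested miRNAs. It became 7 with DESeq2 (43.2% of all), 12 with library size alone (59%) and 3 with limma-voom (27.4%). With no filter it was 8 of 53 (18%), and with the block 0 (15.8%). Leaving out 1 BAT library gave 0 to 2 (17.3% to 25.3%), and none was higher. The counts moved further with 1 plasma library left out, which leaves 1 in its group. The mean cluster share with miR-378a-3p (BAT) or miR-451a (plasma) left out of the total was 1.16% in Sed BAT, 0.693% in Exe BAT and 0.333% in Sed plasma, and by the second values 0.379% in Sed and 0.745% in Exe plasma. Hairpins with at least 200 reads of both arms were 3 in BAT and 3 in plasma.

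Uncalled values that changed sign were, in BAT, miR-127-3p (0.0085 with upper-quartile factors, 0.0517 with library totals implied by RPM, -0.46 to 0.13 with 1 library left out) and miR-434-3p (0.0396 with library totals implied by RPM, -0.35 to 0.17). In plasma they were miR-381-3p (0.47 with limma-voom, -3.33 to 5.73 with 1 library left out), miR-379-5p (-8.87 to 1.61), miR-485-5p (-1.92 to 10.5), miR-411-5p (-6.87 to 0.42), miR-154-5p (-1.85 to 3.91, and -1.21 as a ratio to miR-127-3p) and miR-434-3p (-0.24 as that ratio). The cause was not tested. Same-numbered libraries did not deviate together (correlations of 0.004, -0.08 and -0.12 in BAT, -0.08 in plasma). With 3 or 2 libraries a group, deviations from the group mean are tied to each other, so these values cannot show whether libraries were paired. The numbers were treated as sample names, except in the replicate block. With 1 library left out of a plasma group, the remaining one is assumed to vary like the others.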
